A study of Mus musculus with 4 samples.

Results

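The genes that encode the matrix metalloproteinases (MMP), the ADAMTS proteases and the tissue inhibitors of metalloproteinases (TIMP) were followed in sorted mouse glioma cells, as 44 of 19937 genes measured. They were picked by name, from probe sets whose single gene symbol in the array annotation starts with Mmp, Adamts or Timp followed by a digit. The probe set of highest mean signal was kept for each gene. This gave 22 Mmp, 18 Adamts and 4 Timp genes. RefSeq lists 46 mouse genes with such names, and the other 2, Mmp15 and Adamts2, were not analysed here. The rule uses no measured value apart from mean signal, which picks the probe set. The families themselves were chosen with earlier results of these data known, so the choice was not blind to them.

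Late-onset high-grade gliomas were compared with early-onset low-grade ones on 4 arrays, 2 per group. All tumours arose in C57/Bl6 mice injected as embryos, on day 14 of gestation, with a retrovirus that expresses PDGF-B together with EGFP, so both groups carried the same oncogene and the same marker. Fluorescent cells were sorted from each dissociated tumour. The labels name no cell-type promoter for the virus, and no source used here states how pure the sort was. Each late-onset sample came from 1 tumour (tumour 1 and tumour 2) and each early-onset sample was a pool of cells from 2 tumours (pool 1 and pool 2), so the spread between pools is a spread between averages. Signals are log2 probe set summaries, and a difference of 1 is a 2-fold difference. Over all probe sets the late-onset tumours correlated at r = 0.988 and the early-onset pools at r = 0.992, against 0.972 to 0.974 between groups. Markers of oligodendrocyte progenitors, the lineage of PDGF-driven gliomas, averaged 11.86 and 11.75 in tumours 1 and 2, against 12.04 and 12.15 in pools 1 and 2 (mean log2 signal of 8 genes).

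MMPs are zinc-dependent proteases that are made as inactive precursors and, once their propeptide is removed, cut collagens, laminins and many other proteins outside or at the surface of the cell. Most are secreted, while the membrane-type MMPs stay anchored in the plasma membrane. ADAMTS proteases share the zinc-dependent fold but carry thrombospondin repeats that bind matrix. One branch of them cuts the lecticans, the hyaluronan-binding proteoglycans that make up much of the brain's matrix. TIMPs bind the active site and block it. In gliomas these proteases are studied for their part in invasion through brain tissue and in the growth of vessels.

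Late-onset cells had more signal for the membrane-anchored protease gene Mmp14, for the lectican-cutting protease genes Adamts4 and Adamts9, and above all for the procollagen-processing gene Adamts3, while the inhibitor gene Timp2 and the macrophage elastase gene Mmp12 were about 3-fold lower (2.98-fold and 3.03-fold). Of the 44 genes, 6 rose (Adamts3, Mmp14, Adamts4, Adamts19, Adamts9 and Mmp17) and 4 fell (Mmp12, Timp2, Mmp24 and Adamts16) at an adjusted p under 0.05 in the limma fit over all genes. That is 22.7% of the set, against 14.7% of all 19937 genes. By direction, 13.6% rose and 9.09% fell, against 6.59% and 8.12% of all genes. The median log2 fold change of the 44 genes was 0.02, and that of all genes was -0.01. The 2 groups did not overlap in 27 of the 44 genes (61.4%), against 58.9% of all genes. Late-onset values were the higher in 13 of these and the lower in 14, against 28.5% and 30.4% of all genes. The fit without pool 1 or without pool 2 called far fewer genes, over all genes as well as in the set. Of the 44, only Adamts3, Timp2 and Mmp12 stayed called, each time. Such a fit takes the spread of the single remaining pool from the tumours. A fit without a tumour takes the spread of the remaining tumour from the pools, which are averages. A call kept or gained there therefore does not show that the tumours agree. In sorted bulk samples, fewer cells of a type and less RNA per cell cannot be told apart.

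Signal strength differed widely within the set. Mean log2 signals ran from 3.52 for Mmp1b to 11.55 for Mmp16, and 28 of the 44 genes lay at or below the median of all genes, 7.44. Probe sets differ in how strongly they bind, so these values describe brightness on the array and do not rank transcripts. Among the 16 brighter genes, 5 rose and 2 fell (43.8%), against 21.6% of the 9968 genes above the median, of which 11.4% rose and 10.1% fell. Among the 28 dimmer ones, 1 rose and 2 fell (10.7%), against 7.84% of the 9969 genes at or below the median, of which 1.75% rose and 6.1% fell.

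**Figure D1:**
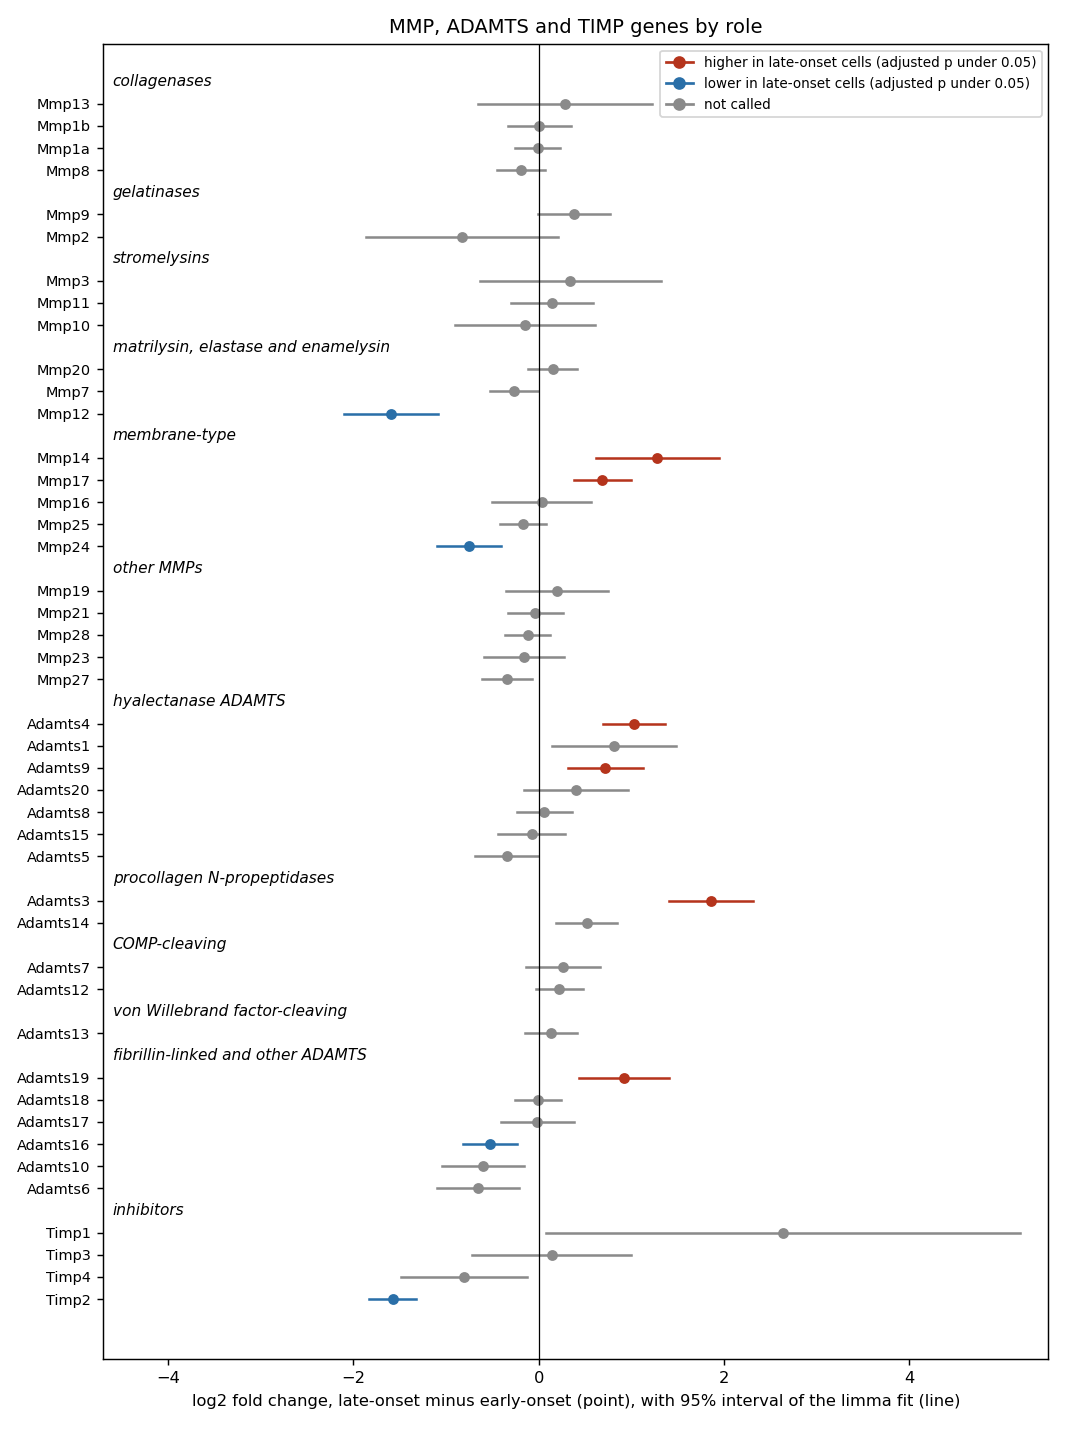
Log2 fold change, late-onset minus early-onset (points), with the 95% interval of the limma fit (lines), for all 44 genes grouped by role. The 6 genes that rose are in red, the 4 that fell in blue, and the other 34 in grey; Timp1 has the highest value, 2.64, and the widest interval.

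The start-site regions of 4 genes are printed here, those with the largest fold changes among the 6 called genes with a window, because the motifs differ between the chromosome 9 cluster and the rest of the set. The windows run from 250 bases before to 50 bases after the transcript start, are given 5′ to 3′ on the gene's strand, and come from RefSeq, build GRCm38.p6. Capitals mark the AP-1 site TGANTCA, the TATA box TATAAA and the GC box GGGCGG on either strand. Mmp12 has 2 annotated starts, and the window with matches is shown.
Mmp14, chr14:54431348-54431647, plus strand: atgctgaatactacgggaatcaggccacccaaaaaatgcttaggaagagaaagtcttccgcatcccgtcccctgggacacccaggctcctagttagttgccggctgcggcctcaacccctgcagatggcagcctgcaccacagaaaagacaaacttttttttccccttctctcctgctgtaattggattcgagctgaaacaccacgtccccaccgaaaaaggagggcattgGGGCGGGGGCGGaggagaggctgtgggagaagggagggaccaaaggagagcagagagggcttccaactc
Adamts3, chr5:89883285-89883584, minus strand: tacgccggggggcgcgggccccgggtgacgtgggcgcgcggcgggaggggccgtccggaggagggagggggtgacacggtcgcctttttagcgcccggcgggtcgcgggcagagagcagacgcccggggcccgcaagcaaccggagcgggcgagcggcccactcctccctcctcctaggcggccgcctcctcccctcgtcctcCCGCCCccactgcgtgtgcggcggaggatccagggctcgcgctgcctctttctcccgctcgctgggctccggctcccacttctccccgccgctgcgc
Timp2, chr11:118355362-118355661, minus strand: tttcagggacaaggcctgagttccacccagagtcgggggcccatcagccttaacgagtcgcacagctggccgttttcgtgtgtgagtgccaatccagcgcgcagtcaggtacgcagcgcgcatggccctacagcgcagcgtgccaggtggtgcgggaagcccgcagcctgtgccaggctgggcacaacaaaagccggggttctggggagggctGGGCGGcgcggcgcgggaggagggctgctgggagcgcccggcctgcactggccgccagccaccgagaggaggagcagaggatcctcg
Mmp12, chr9:7347124-7347423, plus strand: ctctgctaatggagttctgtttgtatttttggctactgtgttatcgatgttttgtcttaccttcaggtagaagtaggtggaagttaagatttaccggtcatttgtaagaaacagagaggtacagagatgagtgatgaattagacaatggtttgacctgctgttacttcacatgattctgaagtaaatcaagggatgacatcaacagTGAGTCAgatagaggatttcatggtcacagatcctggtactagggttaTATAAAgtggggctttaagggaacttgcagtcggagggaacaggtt

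In these letters, Mmp14 had 2 adjoining GC boxes, Adamts3 and Timp2 had 1 each, and none of the 3 windows had a TATA box or an AP-1 site. The Mmp12 window had 1 AP-1 site, 1 TATA box match and no GC box, and its other window had none of the 3 motifs. This TATAAA match began 4 bases after the annotated start, not before it. Windows were found for 30 of the 44 genes. AP-1 sites stood in 8 of them (Mmp1a, Mmp1b, Mmp3, Mmp7, Mmp10, Mmp12, Mmp13 and Mmp20), all neighbours in the MMP cluster on chromosome 9, where 8 of 10 genes had one, against 0 of the other 20 genes. A TATA box stood in 9 of the 10 cluster genes and 2 of the other 20. A GC box stood in 0 of the 10 cluster genes and 16 of the other 20. Of all 32851 windows of the same length in the table, 7.81% held the AP-1 site, 13.6% the TATA box and 35.7% the GC box. A match is a description of the letters, and no binding was measured.

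Membrane-type MMPs, which cut matrix at the cell surface, moved in opposite directions. Mmp14 encodes MT1-MMP, a collagenase that also activates the MMP2 precursor. It stood at 11.03 and 11.82 in tumours 1 and 2, against 10.16 and 10.13 in pools 1 and 2 (log2 signal). Both tumours lay above both pools, and tumour 2 was the higher. Mmp14 averaged 11.43 ± 0.56 in late-onset cells and 10.15 ± 0.02 in early-onset cells (SD, n = 2 each), which is 2.43 times the early-onset level (95% interval 1.53 to 3.85, adjusted p 0.0345). The log2 fold change was 0.88 without tumour 2 and 1.68 without tumour 1. Each of these fits takes its spread from the pools alone and leaves out the gap between the tumours. The call was lost without pool 1 (adjusted p 0.139) or pool 2 (0.159).

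Mmp17, which encodes MT4-MMP, a protease held by a lipid anchor, stood at 9.15 and 9.39 in late-onset tumours 1 and 2, against 8.55 and 8.62 in early-onset pools 1 and 2. It rose by 0.68 (SE 0.12, adjusted p 0.0233), with no overlap between groups. The call was lost without pool 1 (adjusted p 0.128), pool 2 (0.117) or tumour 2 (0.0559). Mmp24 encodes MT5-MMP, the membrane-type enzyme best known from neurons. It stood at 7.44 and 7.71 in tumours 1 and 2, against 8.24 and 8.41 in pools 1 and 2, and fell by 0.75 (SE 0.14, adjusted p 0.025). Its call was lost without pool 1 (0.0866), pool 2 (0.148) or tumour 1 (0.0542). Beside it, 4 of 8 neuron markers fell and 1 rose, and the list averaged 7.91 and 8.10 in tumours 1 and 2 and 8.48 and 8.70 in pools 1 and 2. Their part in the Mmp24 result was not tested. Mmp16, which encodes MT3-MMP, was at 11.78 and 11.36 in the tumours and 11.76 and 11.31 in the pools, a difference of 0.03 (95% interval -0.50 to 0.57, adjusted p 0.944) whose sign changed with the scaling between arrays. The fifth, the leukocyte enzyme gene Mmp25, was not called.

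The secreted collagenase, gelatinase and stromelysin genes gave 0 calls among 9 genes by limma, and 0 of the 9 had an unadjusted p under 0.05. All but Mmp2 lay at or below the median signal, where 7.84% of all such genes were called. With so few genes, 0 calls is therefore not a result about these classes. Gelatinases cut denatured collagen and the collagen of basement membranes. Of these, Mmp2 stood at 7.12 and 8.37 in tumours 1 and 2, against 8.73 and 8.42 in pools 1 and 2. Tumour 2 lay just below the pools and tumour 1 far below, which gave -0.83 (SE 0.41, adjusted p 0.251). Without tumour 2 it was -1.46 and without tumour 1 it was -0.20. Mmp9, the other gelatinase gene, chosen here after its values were seen, stood at 5.72 and 6.11 in the tumours and 5.55 and 5.53 in the pools, with an adjusted p of 0.177. The brightest collagenase gene, Mmp13, stood at 5.49 and 6.53 in tumours 1 and 2, against 5.99 and 5.46 in pools 1 and 2. Its difference of 0.29 (adjusted p 0.674) was -0.23 without tumour 2. Among the stromelysin genes Mmp11 was the brightest, with 6.61 and 6.85 in the tumours and 6.38 and 6.80 in the pools (0.14, adjusted p 0.663), and it was -0.07 without pool 1.

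Mmp12 was the exception in the chromosome 9 cluster. It encodes macrophage metalloelastase, which cuts elastin and is made mainly by macrophages. It stood at 6.09 and 6.29 in tumours 1 and 2, against 8.06 and 7.52 in pools 1 and 2. Both tumours lay over 1 log2 unit below both pools, and Mmp12 fell by 1.60 (SE 0.20, adjusted p 0.00962). The call held without each array in turn, at -1.87 to -1.33. The 10 genes of the cluster, Mmp13, Mmp12, Mmp1b, Mmp3, Mmp1a, Mmp10, Mmp8, Mmp27, Mmp20 and Mmp7, follow each other with no other protein-coding gene between them in RefSeq. All 10 had mean signals at or below the median of all genes. The other 9 were not called, and their log2 fold changes lay between -0.34 and 0.34.

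Markers of microglia and macrophages moved with Mmp12. Of 16 such genes, 15 fell, and the list averaged 6.59 and 7.17 in tumours 1 and 2, against 10.48 and 10.22 in pools 1 and 2 (mean log2 signal). The only one not called, Tmem119, a microglial surface protein gene, stood at -1.13 with an adjusted p of 0.0688. Adgre1, which encodes the macrophage antigen F4/80, was at 5.97 and 6.18 in the tumours and 10.21 and 9.74 in the pools. The part of these cells in the results for Mmp12 and for the other genes that fell was not tested. Of 10 neutrophil markers 1 fell, Csf3r, and of 9 T and NK cell markers 0 were called by limma, with 0 at an unadjusted p under 0.05. The neutrophil collagenase gene Mmp8, named after its values were seen, had mean signals of 4.05 in late-onset cells and 4.24 in early-onset cells, and was not called.

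Of the remaining MMP genes 0 were called by limma, at log2 fold changes between -0.34 and 0.20, and 2 (Mmp7 and Mmp27) had an unadjusted p under 0.05. These were the matrilysin gene Mmp7, the enamelysin gene Mmp20, and Mmp19, Mmp21, Mmp23, Mmp27 and Mmp28. All lay at or below the median signal, where 7.84% of all such genes were called. Mmp28, which encodes epilysin, was the brightest of the last 5, with 6.25 and 6.32 in tumours 1 and 2, against 6.42 and 6.39 in pools 1 and 2 (-0.12, adjusted p 0.479).

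**Figure D2:**
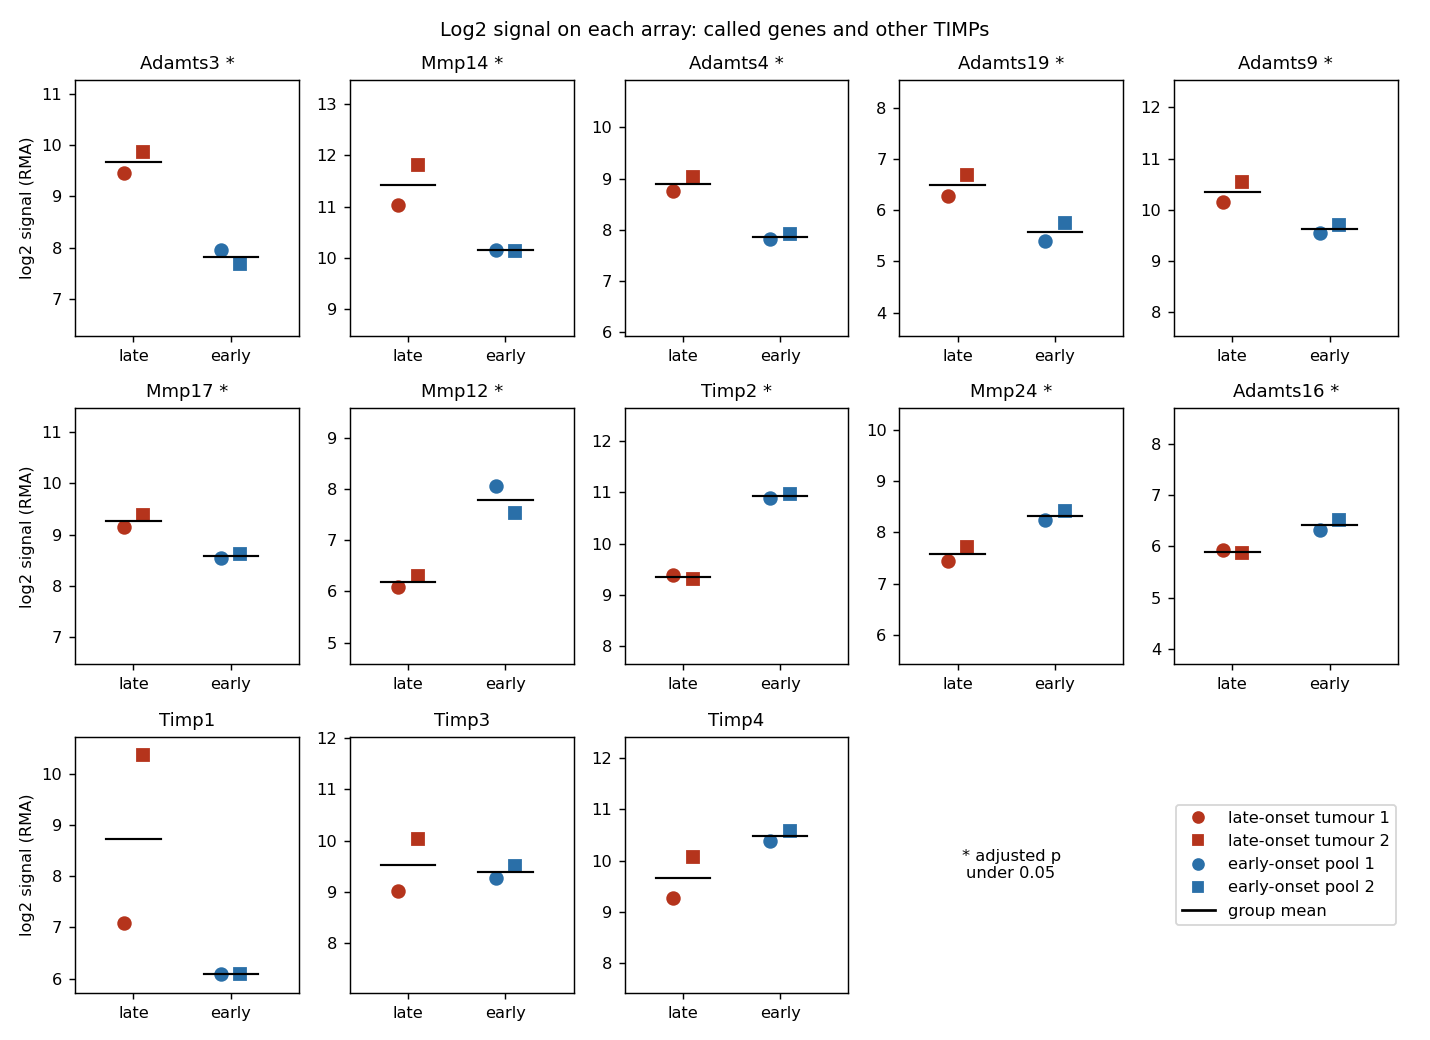
Log2 signal on each array for the 10 genes called and the other 3 TIMP genes. Late-onset tumours (red) are left of early-onset pools (blue), bars are group means (n = 2 each), and every panel spans the same number of log2 units; Timp1 is at 7.09 in tumour 1 and 10.36 in tumour 2.

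The procollagen N-propeptidase gene Adamts3 had the highest log2 fold change among the called genes. Its product trims the amino-terminal propeptide of fibrillar procollagens and helps to activate VEGF-C, a growth factor of lymphatic vessels. Adamts3 stood at 9.46 and 9.87 in tumours 1 and 2, against 7.94 and 7.68 in pools 1 and 2. It averaged 9.67 ± 0.29 in late-onset cells and 7.81 ± 0.19 in early-onset cells (SD, n = 2 each), a 3.62-fold higher level (95% interval 2.65 to 4.95, adjusted p 0.00551). The gap between groups was several times the spread within either group, and the call held in all 15 alternative settings, at 1.42 to 2.06.

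Adamts3 was read by 16 probe sets, which allowed the result to be checked over different probes. In a fit over all single-gene probe sets, chosen after seeing the data, 16 of 16 were called higher, with log2 fold changes of 1.01 to 1.86 and adjusted p of 0.00316 to 0.016. In all 16 both tumours lay above both pools. These probe sets read the same 4 RNA samples, so they check the probes and do not add replicates. The related gene Adamts14 stood at 6.97 and 7.22 in the tumours and 6.50 and 6.65 in the pools. Its adjusted p was 0.0585, and it is given here because its value was seen to lie close to the threshold.

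**Figure D3:**
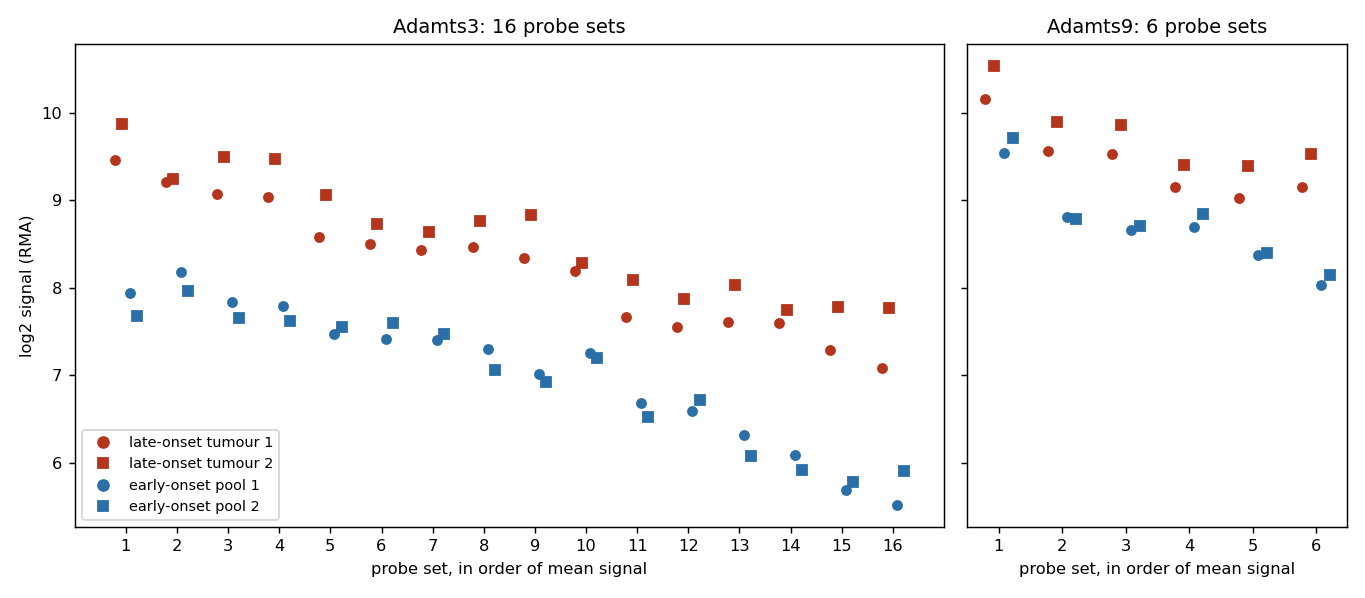
Log2 signal of each probe set of Adamts3 (16) and Adamts9 (6), ordered by mean signal, in late-onset tumours (red) and early-onset pools (blue). In all 22 the red points lie above the blue ones.

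The hyalectanases, which cut aggrecan, versican and brevican, gave 2 rises (28.6%) and 0 falls among 7 genes. Over all genes 6.59% rose and 8.12% fell. Adamts4, which encodes the aggrecanase ADAMTS4, stood at 8.75 and 9.03 in tumours 1 and 2, against 7.82 and 7.91 in pools 1 and 2. That is 2.04 times the early-onset level (95% interval 1.62 to 2.56, adjusted p 0.0102), and each group's samples lay close together. The call was lost without pool 1 (adjusted p 0.0653) or pool 2 (0.0587), at 0.98 and 1.07. Adamts4 lies on chromosome 1, where genes above the median signal were a median of 0.40 higher in tumour 1 than in tumour 2, against -0.06 to -0.01 on the other chromosomes. Without tumour 1 Adamts4 was at 1.17, and without tumour 2 at 0.89.

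Adamts9, which encodes a versican- and aggrecan-cutting protease, stood at 10.15 and 10.53 in late-onset tumours 1 and 2, against 9.54 and 9.71 in early-onset pools 1 and 2. It rose by 0.72 (SE 0.16, adjusted p 0.0413). Of its 6 probe sets 5 were called higher, at 0.51 to 1.25 over the 6. The call was lost without pool 1 (0.191), pool 2 (0.14) or tumour 2 (0.082), and after cyclic loess (0.056). Adamts1, the brightest of the class, stood at 10.98 and 11.66 in tumours 1 and 2, against 10.72 and 10.30 in pools 1 and 2. Both tumours lay above both pools, at 0.81 (95% interval 0.14 to 1.48, adjusted p 0.11). Adamts1 was at 1.15 without tumour 1 and at 0.47 without tumour 2. The other 4, Adamts5, Adamts8, Adamts15 and Adamts20, lay between -0.35 and 0.40 and were not called. The lowest, Adamts5, named after its values were seen, had both tumours below both pools (-0.35, adjusted p 0.164).

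Among the other ADAMTS genes, 1 rose and 1 fell, both dim. Adamts19, whose substrates are little known, stood at 6.27 and 6.69 in tumours 1 and 2, against 5.40 and 5.74 in pools 1 and 2, and rose by 0.92 (SE 0.19, adjusted p 0.0363). Its call was lost without pool 1 (0.161), pool 2 (0.0854) or tumour 2 (0.0824). Adamts16 stood at 5.93 and 5.87 in the tumours and 6.32 and 6.52 in the pools, and fell by 0.53 (SE 0.11, adjusted p 0.0393). This call was lost without any 1 of the 4 arrays (adjusted p 0.0736 to 0.212) and after each array's median was subtracted (0.0522).

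Adamts17, linked to fibrillin and the brightest of that class, stood at 9.43 and 9.04 in tumours 1 and 2, against 9.22 and 9.28 in pools 1 and 2. The groups overlapped in this probe set, and its 5 probe sets ran from -0.02 to 0.31 with 0 called by limma. In 3 of the 5 both tumours lay above both pools. Adamts7, a protease of cartilage oligomeric matrix protein (COMP), stood at 7.43 and 7.42 in the tumours and 6.96 and 7.37 in the pools (adjusted p 0.348). Adamts13, which encodes the protease of von Willebrand factor, stood at 5.71 and 5.83 in the tumours and 5.71 and 5.56 in the pools (adjusted p 0.496). Adamts6, Adamts10, Adamts12 and Adamts18 were not called, at -0.66 to 0.22. Adamts6 (-0.66, adjusted p 0.0678) and Adamts10 (-0.60, adjusted p 0.0832) had both tumours below both pools. These values are given because they were seen to lie near the threshold.

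The inhibitors moved apart from each other. Timp2 encodes the inhibitor that, besides blocking MMPs, bridges MT1-MMP and the MMP2 precursor at the cell surface. It stood at 9.39 and 9.31 in tumours 1 and 2, against 10.88 and 10.97 in pools 1 and 2. The samples within each group lay within 0.1 of each other, and Timp2 averaged 9.35 ± 0.05 in late-onset cells and 10.93 ± 0.06 in early-onset cells (SD, n = 2 each). It fell by 1.57 (SE 0.10, adjusted p 0.00229), and the call held in all 15 alternative settings, at -1.67 to -1.52. Timp4, an inhibitor gene expressed in brain, stood at 9.27 and 10.06 in tumours 1 and 2, against 10.37 and 10.57 in pools 1 and 2 (-0.81, 95% interval -1.49 to -0.13, adjusted p 0.115). Without tumour 2 it was -1.20, and without tumour 1 it was -0.41.

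Timp1 stood far apart in a single tumour. TIMP1 is a secreted inhibitor that is induced by injury and inflammation in many tissues. The signal was 7.09 in tumour 1 and 10.36 in tumour 2, against 6.08 and 6.10 in pools 1 and 2. Both tumours lay above both pools, yet the tumours differed from each other by 3.27, and the pools by 0.01. The fit over all samples therefore gave 2.64 (95% interval 0.07 to 5.20, adjusted p 0.158). Without tumour 1 it was 4.27 (adjusted p 0.0025), and without tumour 2 it was 1.00 (adjusted p 0.0148), with the lone tumour assumed to vary like the pools. Timp3, whose product binds matrix and also inhibits ADAM and ADAMTS proteases, stood at 9.02 and 10.04 in tumours 1 and 2, against 9.27 and 9.51 in pools 1 and 2. Tumour 1 lay below the pools and tumour 2 above them (0.14, adjusted p 0.838, and -0.37 without tumour 2).

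The late-onset tumours differed from each other more often in this set than over all genes. They lay over 1 log2 unit apart in 5 of the 44 genes (11.4%), against 244 of 19937 (1.22%), a description with no test. The 5 were Timp1, Mmp2, Mmp3, Mmp13 and Timp3, at 3.27, 1.25, 1.21, 1.04 and 1.02, and tumour 2 was the higher in each. Mmp3, which encodes stromelysin-1 and was chosen for this gap, stood at 4.38 and 5.59 in the tumours and 4.71 and 4.58 in the pools. Its log2 fold change of 0.34 (adjusted p 0.626) was 0.94 without tumour 1 and -0.26 without tumour 2. Mmp3 was dim, with a mean of 4.81, below the lower quartile of all gene means, 5.52. The pools differed by at most 0.54 in any of the 44 genes. The median log2 fold change of the 44 genes was 0.08 without tumour 1 and -0.05 without tumour 2, against 0.02 with all arrays.

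Markers of fibroblasts and vessel-wall cells were also higher in tumour 2. The 13 listed genes averaged 6.20 in tumour 1 and 8.02 in tumour 2, against 6.36 and 6.37 in pools 1 and 2. In 12 of the 13 the signal was higher in tumour 2, by a median of 2.30. Dcn and Col1a1 were picked from this list after their values were seen. The matrix gene Dcn stood at 4.96 and 9.23 in tumours 1 and 2, against 5.84 and 6.34 in pools 1 and 2. The collagen gene Col1a1 stood at 7.26 and 10.23 in the tumours and 7.44 and 7.57 in the pools. By limma 0 of the 13 rose and 1 fell, the pericyte gene Rgs5. Endothelial markers averaged 6.42 and 7.05 in the tumours and 7.08 and 6.54 in the pools. The part of such cells in the values of Timp1, Mmp2, Mmp3, Mmp13, Timp3 and Mmp14 was not tested.

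**Figure D4:**
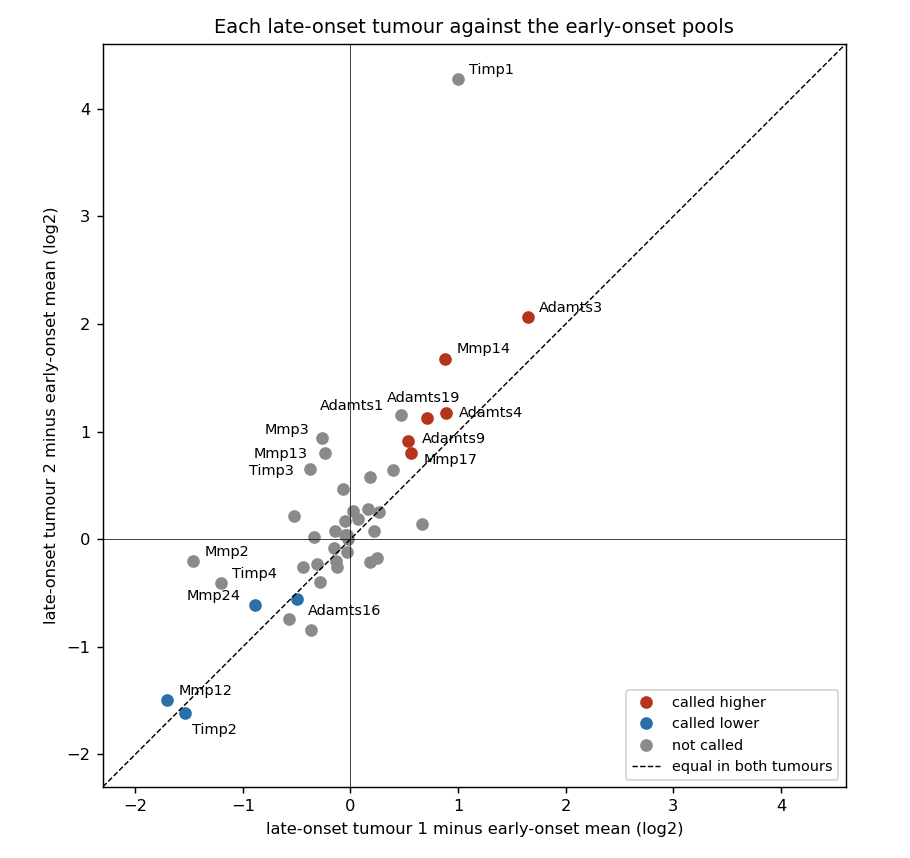
Log2 signal of tumour 1 (x axis) and of tumour 2 (y axis), each minus the mean of the early-onset pools, for the 44 genes. Points on the dashed line are equal in both tumours; Timp1 lies at 1.00 and 4.27, while Adamts3, Timp2 and Mmp12 lie near the line.

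**Figure D5:**
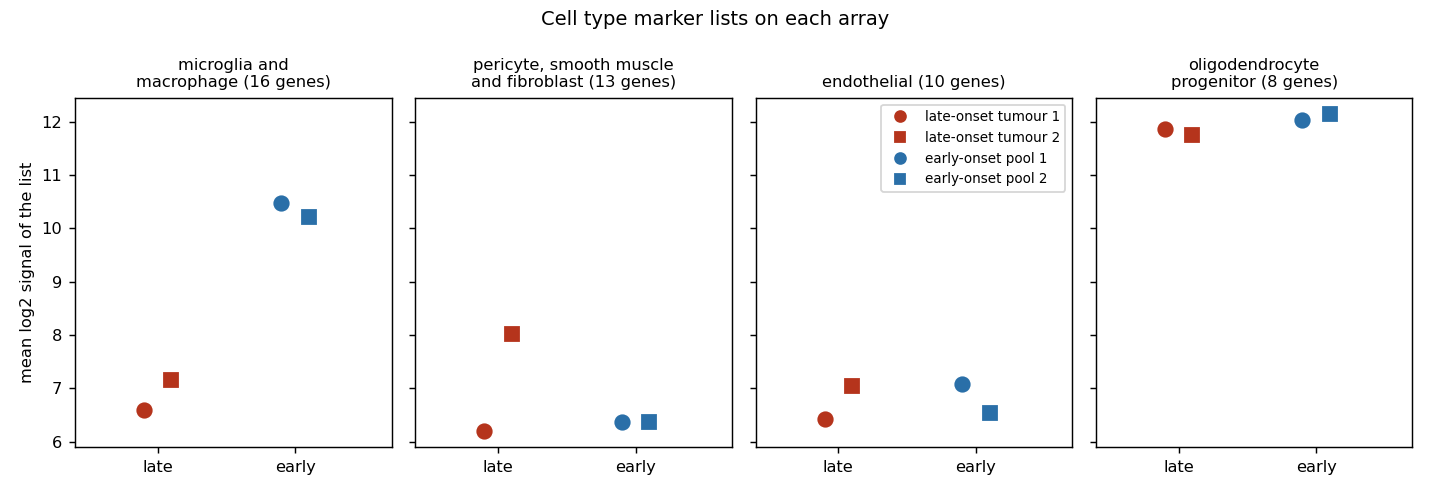
Mean log2 signal of 4 marker lists on each array, with late-onset tumours (red) left of early-onset pools (blue). The microglia and macrophage list is low in both tumours, and the pericyte, smooth muscle and fibroblast list is high in tumour 2 alone.

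Genes linked to the cutting of matrix, among them MMP activators, inhibitors and receptors, moved both ways. Of 16 such genes, 3 rose and 2 fell. Pcolce, which encodes an enhancer of procollagen C-terminal cleavage, stood at 9.22 and 9.48 in tumours 1 and 2, against 6.62 and 7.26 in pools 1 and 2, and rose by 2.41 (adjusted p 0.00551). Cd151, a tetraspanin gene, rose by 1.28, and Pcsk7, which encodes a furin-like convertase and was named after its value was seen, by 0.41. Lrp1, which encodes an endocytic receptor that clears MMPs and TIMPs, fell by 0.77 (adjusted p 0.00998), and the integrin gene Itgb3 fell by 0.63. The convertase gene Furin and the membrane-anchored MMP inhibitor gene Reck, both chosen after their values were seen, stood at -0.26 (adjusted p 0.278) and 0.33 (0.31).

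The lecticans cut by the hyalectanases gave 0 calls among 4 genes by limma, where 14.7% of all genes were called. Of 8 genes for lecticans and their link proteins, Hapln4 rose by 0.61 and Hapln2 fell by 0.49, and Acan, Bcan, Ncan and Vcan, the lectican genes, had adjusted p of 0.143 to 0.55, with 2 of the 4 at an unadjusted p under 0.05. Of 7 ADAMTS-like genes, which encode relatives without a protease domain, 2 rose: Adamtsl1 by 1.19 (adjusted p 0.0231) and Thsd4 by 0.52 (0.0357).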

How the data were processed

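Total RNA from EGFP-sorted glioma cells was hybridised to 4 Affymetrix mouse arrays, per the labels' protocols. The deposited values are on a log2 scale, 1 per probe set. The submitters' processing notes name RMA and affy 3.4.2, and parameters are not given in the sources used here. RMA removes shared shifts and understates changes of dim genes, and 2 arrays per group limit the precision. Of the 34760 probe sets, 21640 carry 1 symbol in the platform annotation, 1321 several and 11799 none, and those with 1 gave 19937 genes. The fit used lmFit and eBayes (limma 3.58.1, under R 4.3.3) for late-onset minus early-onset, with Benjamini-Hochberg adjustment over all genes and a threshold of 0.05. All adjusted p-values come from that fit unless another setting is named. On simulated arrays with 200 of 19937 genes changed, the fit recovered 40.1% of changes of 1 log2 unit and 95% of changes of 2. In the data 14.7% of genes were called, a far larger share, so recovery there may differ from these rates.

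Genes named with values were the called members, the TIMPs, the brightest member of each role class, uncalled members past 1 log2 unit, and up to 4 called genes of each further list. Other genes given with values, among them Mmp3, Mmp8, Mmp9, Adamts14 and the single cell-type markers, were chosen after their values were seen. The members and lists were chosen with earlier results of these data known. Both samples of a group are biological replicates per the labels, whose numbers only name samples. Promoter windows are RefSeq's, build GRCm38.p6.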

Additional observations from a re-analysis of the deposited data

How the results depend on the processing

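Over 15 alternative settings, 280 of 321 values of the 22 named genes kept their direction and their side of the threshold, 24 lost a call, 5 gained one and 12 changed sign. Adamts3, Timp2 and Mmp12 kept their call in each setting run. All genes called numbered 2931, with 1313 higher and 1618 lower. With 1 array left out, 850 to 2577 were called, 291 to 1212 higher and 559 to 1365 lower, and of the 44 genes 3 to 14 were called, 1 to 11 higher and 2 to 5 lower. The lowest counts came without an early-onset pool and most of the highest without tumour 1. The count of lower calls among the 44 genes was instead highest without tumour 2. Fits without a pool take their spread from the tumours alone, and fits without a tumour take it from the pools alone. How far this sets the counts was not tested. Replicate numbers do not pair the samples (correlation of deviations from the group means -0.044). With the replicate number as a block, 1833 genes were called, 744 of them higher, and of the 44 genes 8 were called, with Mmp14 (adjusted p 0.0562) and Adamts16 (0.0826) no longer among them. Among the 22, the genes that changed sign were not called in any setting. Mmp3, a dim gene not among the 22, changed sign (-0.26 without tumour 2). It gained a call at 0.94 without tumour 1, in a fit whose spread came from the pools alone. Adamts17 was 0.043 after median subtraction, 0.13 as the mean of its probe sets and 0.24 with its dimmest one, and Mmp16 was -0.086 after quantile normalization and -0.097 after cyclic loess. With 1 array left out, Adamts17 ranged from -0.21 to 0.18, Mmp16 from -0.19 to 0.26, Mmp11 from -0.070 to 0.35, Mmp13 from -0.23 to 0.80 and Timp3 from -0.37 to 0.65. No detection calls were given, so a gene near the floor of the array cannot be told from an absent one.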

Other observations

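Related protease families outside the set also changed in part. Of 13 ADAM genes, which encode membrane-bound sheddases and their inactive relatives, 1 rose and 3 fell. Adam19, a sheddase gene, stood at 8.98 and 9.50 in tumours 1 and 2, against 8.26 and 8.07 in pools 1 and 2, and rose by 1.08 (adjusted p 0.025). Adam8, a gene of leukocytes, stood at 6.82 and 7.23 in the tumours and 8.81 and 8.13 in the pools, and fell by 1.44 (adjusted p 0.0252). Adam15 fell by 0.68 and Adam22 by 0.66. Of 5 astacin protease genes, 1 rose: Bmp1, which encodes the protease that trims the C-terminal propeptide of procollagens, stood at 11.01 and 11.50 in the tumours and 10.51 and 10.42 in the pools (0.79, adjusted p 0.0458). Among the other marker lists, 3 of 8 astrocyte markers, 2 of 5 mature oligodendrocyte markers and 1 of 8 oligodendrocyte progenitor markers fell and 0 rose, and of 10 endothelial markers 1 rose, Erg.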
